A study of Mus musculus with 32 samples.

Results

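The genes described here encode the protein subunits of the mitochondrial ribosome, and their RNA was followed through the day in interscapular brown adipose tissue (iBAT) of the mouse. A gene was a member when its symbol began with Mrpl or Mrps followed by a number, when it was no annotated pseudogene, and when it had at least 320 counts summed over the 32 libraries. Of 50686 genes in the count table, 83 matched the symbol pattern and 77 were members. The 6 others were 5 pseudogenes and Mrpl53, which was listed at 0 in every library. By the known composition of the particle, 50 members belong to the large subunit and 26 to the small subunit. The remaining member, Mrps36, kept its ribosomal name but is now placed in the oxoglutarate dehydrogenase complex. Male C57BL/6J mice aged 10 weeks, fed chow, not fasted and kept under mild cold, were killed at 8 zeitgeber times (ZT) spaced by 3 h over 24 h, with lights on from ZT0 and off from ZT12. Each time point held 4 mice, every mouse gave 1 library, and no mouse carried a transgene, an altered allele or a treatment.

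Mitochondria make a small set of inner membrane proteins on ribosomes of their own, and all of those proteins are subunits of the respiratory chain or of ATP synthase. The ribosomal RNAs of these ribosomes come from mitochondrial DNA, whereas every ribosomal protein comes from a nuclear gene, is made in the cytosol and is imported. Some of the proteins have a relative in the bacterial ribosome and others occur only in mitochondria. Brown adipocytes are packed with mitochondria, whose respiratory chain drives heat production through Ucp1, so the supply of mitochondrial ribosomes is part of what the tissue needs to build its thermogenic machinery.

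Sequencing depth ranged from 16300770 to 18254659 counts per library, and each member had at least 31 counts in every library. The coefficient of variation between mice of 1 time point, averaged over the 8 time points for each member, had a median of 8.37% over members. The tissue label was met by the brown adipocyte markers, such as Ucp1 at 955 to 4318 CPM (counts per 1000000, scaled between libraries by the trimmed mean of M values) and Cidea at 1529 to 2132 CPM. The 5 white fat markers summed to 49.1 to 420 CPM, led by Lep at 16.2 to 275 CPM, and of these Hoxc9 was at 0 in 27 libraries and the other 4 in none. The summed level of 12 skeletal muscle markers ran from 2.79 to 7819 CPM between libraries, and 15 libraries exceeded 1000 CPM. A mouse at ZT9 (replicate 3) had the highest summed leukocyte markers, with 137 CPM. All libraries of a time point ran on 1 sequencing lane, with ZT0, ZT3 and ZT6 on lane 2, ZT9, ZT12 and ZT15 on lane 3, and ZT18 and ZT21 on lane 4, so that differences between those 3 blocks of the day and differences between lanes cannot be told apart.

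All 77 members were expressed, and they spanned a 45.3-fold range once their levels were divided by transcript length. The highest were Mrpl42, a mitochondria-specific protein of the large subunit, with 190 CPM per kb, and Mrpl30, a relative of a bacterial large subunit protein, with 138 CPM per kb. Mrpl34, another relative of a bacterial protein, reached 135 CPM per kb, Mrps21 of the small subunit 104 CPM per kb, and Mrpl12, the stalk protein that recruits translation factors, 99.6 CPM per kb. At the other end stood Mrpl23, a protein at the exit of the peptide tunnel, with 4.19 CPM per kb, followed by Mrps25 with 5.22 and Mrps26 with 5.37 CPM per kb. The medians per kb were 31.9 CPM for the large subunit and 25.2 CPM for the small subunit. Some of these levels are uncertain because sequence or exons are shared. Mrpl23 had 1616 counts over the 32 libraries and its pseudogene Mrpl23-ps1 had 8803. With those added it would stand at 27.0 CPM per kb, and without Mrpl23 the range of the members was 36.4-fold. Mrps36 had 25753 counts and its pseudogenes 18049. The counting was not stated to use strand, and 69.8% of the exon bases of Mrps25 lie opposite exons of Nr2c2. Mrps34 shares 37.0% of its exon bases with Nme3 on its own strand and 63.4% with Mapk8ip3 on the other.

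Summed over all members, the RNA of the mitochondrial ribosome had its highest mean at lights-on and its lowest 3 h later. The 4 mice of ZT0 had 4163, 4305, 4211 and 3625 CPM, and those of ZT3 had 3674, 3490, 3325 and 3432 CPM. Replicate 4 of ZT0 was thus the lowest of its group and lay below the highest mouse of ZT3, while the 3 others stood above every ZT3 mouse. The group mean was 4076 ± 306 CPM (SD, n = 4) for ZT0 but 3480 ± 146 CPM (SD, n = 4) for ZT3. Through the rest of the light phase it stayed near that level, at 3555 ± 118 CPM for ZT6 and 3575 ± 343 CPM for ZT9. In the dark phase ZT12 had 3749 ± 254 CPM, ZT15 had 3599 ± 381 CPM, ZT18 had 3909 ± 117 CPM and ZT21 had 3744 ± 231 CPM (SD over 4 mice each). Scaled by library size alone, the means of ZT0 and ZT18 were 3949 and 3948 CPM and that of ZT3 was 3527 CPM, still the lowest. The lowest single library was replicate 1 of ZT15 with 3041 CPM, which also had the highest summed skeletal muscle markers, 7819 CPM, beside a ZT3 library with 7818 CPM. Gene by gene, 54 members had their highest mean at ZT0, while 30 had their lowest at ZT3 and 11 at ZT6. No share of all tested genes is given beside these counts. In whole tissue, fewer cells of a type and less RNA per cell cannot be told apart.

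**Figure D1:**
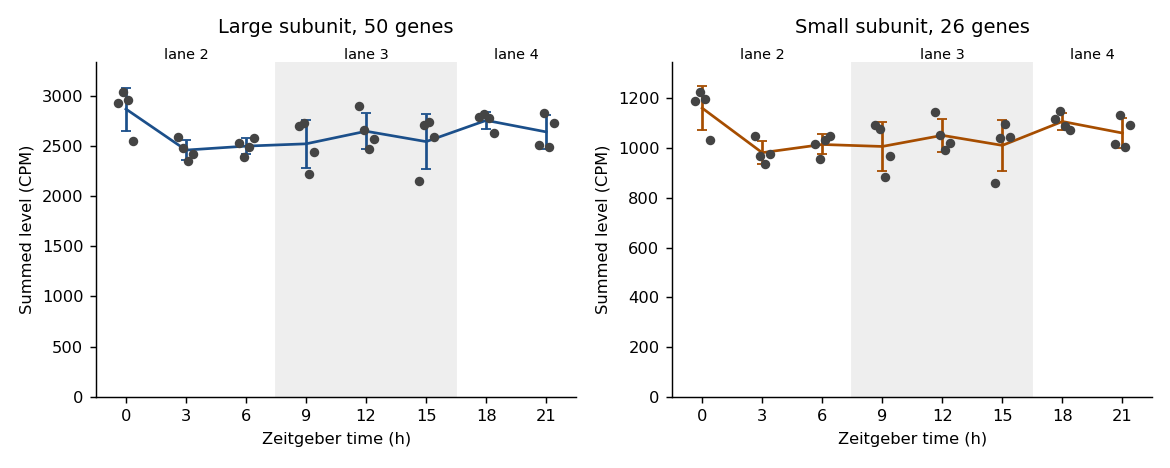
Summed level of the 50 large subunit genes (left) and the 26 small subunit genes (right) in each mouse (dots, TMM-scaled CPM) against zeitgeber time (h), with the mean of the 4 mice as a line, the SD as bars and the time points of lane 3 shaded. The large subunit mean was 2866 CPM at ZT0 and 2457 CPM at ZT3, the small subunit mean was 1161 and 982 CPM, and replicate 1 of ZT15 is the lowest library in both.

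The step from ZT0 to ZT3, which is contained in lane 2, held most of the differences that passed a test. At ZT3, 23 of 77 members were lower than at ZT0 and 0 were higher (edgeR quasi-likelihood test, Benjamini-Hochberg adjusted p under 0.05 over all 15505 genes tested), against 6.60% of all tested genes lower and 7.16% higher. The log2 fold change was negative for 74 of 77 members, with a median of -0.22, compared with 49.3% of all tested genes and a median of 0.01. Genes in the same quartiles of expression level had a median of -0.03, with 9.25% lower and 8.39% higher. Those in the same quartiles of transcript length had a median of -0.05, with 7.58% lower and 3.78% higher. The 4 ZT3 mice lay entirely below the 4 ZT0 mice for 26 members and entirely above for 0, where 7.58% and 8.38% of all tested genes did so. The genes past the test came from both subunits, 15 of 50 in the large and 8 of 26 in the small one. Among the bacterial relatives 9 of 30 in the large and 4 of 16 in the small subunit fell, and among the mitochondria-specific proteins 6 of 20 and 4 of 10.

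The largest fall was that of Mrpl20 (chr4:155802878-155809975, plus strand), a relative of a bacterial protein that binds the large ribosomal RNA early in assembly. Its 4 ZT0 mice had 60.7, 68.4, 64.7 and 48.3 CPM and its ZT3 mice 39.2, 44.0, 40.2 and 36.4 CPM. All 4 ZT0 mice exceeded all 4 ZT3 mice, and the mean was 34.0% lower on the fitted scale (log2 fold change -0.60 ± 0.16 SE, edgeR adjusted p = 0.0155). Mrpl36 (chr13:73328513-73332178, plus strand), among the smallest proteins of the particle, had 28.0, 30.4, 26.8 and 18.9 CPM at ZT0 and 18.4, 19.3, 18.4 and 18.4 CPM at ZT3. Here replicate 4 of ZT0 fell within the range of ZT3, and the difference still passed (log2 fold change -0.48 ± 0.11 SE, edgeR adjusted p = 0.00642). Mrpl54 (chr10:81264713-81266934, minus strand), a mitochondria-specific protein of the large subunit, showed the same arrangement. It had 25.7, 24.5, 24.3 and 17.3 CPM at ZT0 against 14.6, 17.4, 17.8 and 16.6 CPM at ZT3, with only replicate 4 of ZT0 inside the ZT3 range (log2 fold change -0.47 ± 0.12 SE, edgeR adjusted p = 0.0118).

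Other large subunit genes that passed at ZT3 had smaller log2 fold changes. Mrpl47 fell from 47.3 ± 5.26 to 35.5 ± 3.59 CPM (SD, n = 4), Mrpl19, a protein at the interface of the subunits, from 33.4 ± 1.82 to 25.7 ± 3.08 CPM, and Mrpl46 from 29.7 ± 2.16 to 23.0 ± 1.46 CPM. Mrpl42, the most abundant member per kb, fell from 152 ± 14.9 to 120 ± 3.91 CPM. Mrpl12 fell by 18.8% and Mrpl44, which has an RNase III fold, by 18.6%. Over all 23 genes the log2 fold change ran from -0.60 for Mrpl20 to -0.21 for Mrpl24, a relative of a bacterial protein of the large subunit that was picked out after its value was seen. In the small subunit, Mrps22 fell from 32.5 ± 1.86 to 24.6 ± 2.72 CPM, Mrps6 from 30.7 ± 2.91 to 23.9 ± 2.34 CPM, Mrps17 from 56.3 ± 5.73 to 45.2 ± 4.89 CPM and Mrps23 from 53.3 ± 5.81 to 41.8 ± 1.29 CPM. Mrps25 also passed with a log2 fold change of -0.26 (edgeR adjusted p = 0.0456), subject to its overlap with Nr2c2, and for Mrpl19, which lies partly opposite Gcfc2, 64.8% of the stretches of 100 bases were found in no other annotated gene. Mrpl23, the least abundant member per kb, had a log2 fold change of 0.07 ± 0.17 SE, the highest of the 77, at 2.86 ± 0.348 CPM in ZT0 and 3.00 ± 0.443 CPM in ZT3.

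**Figure D2:**
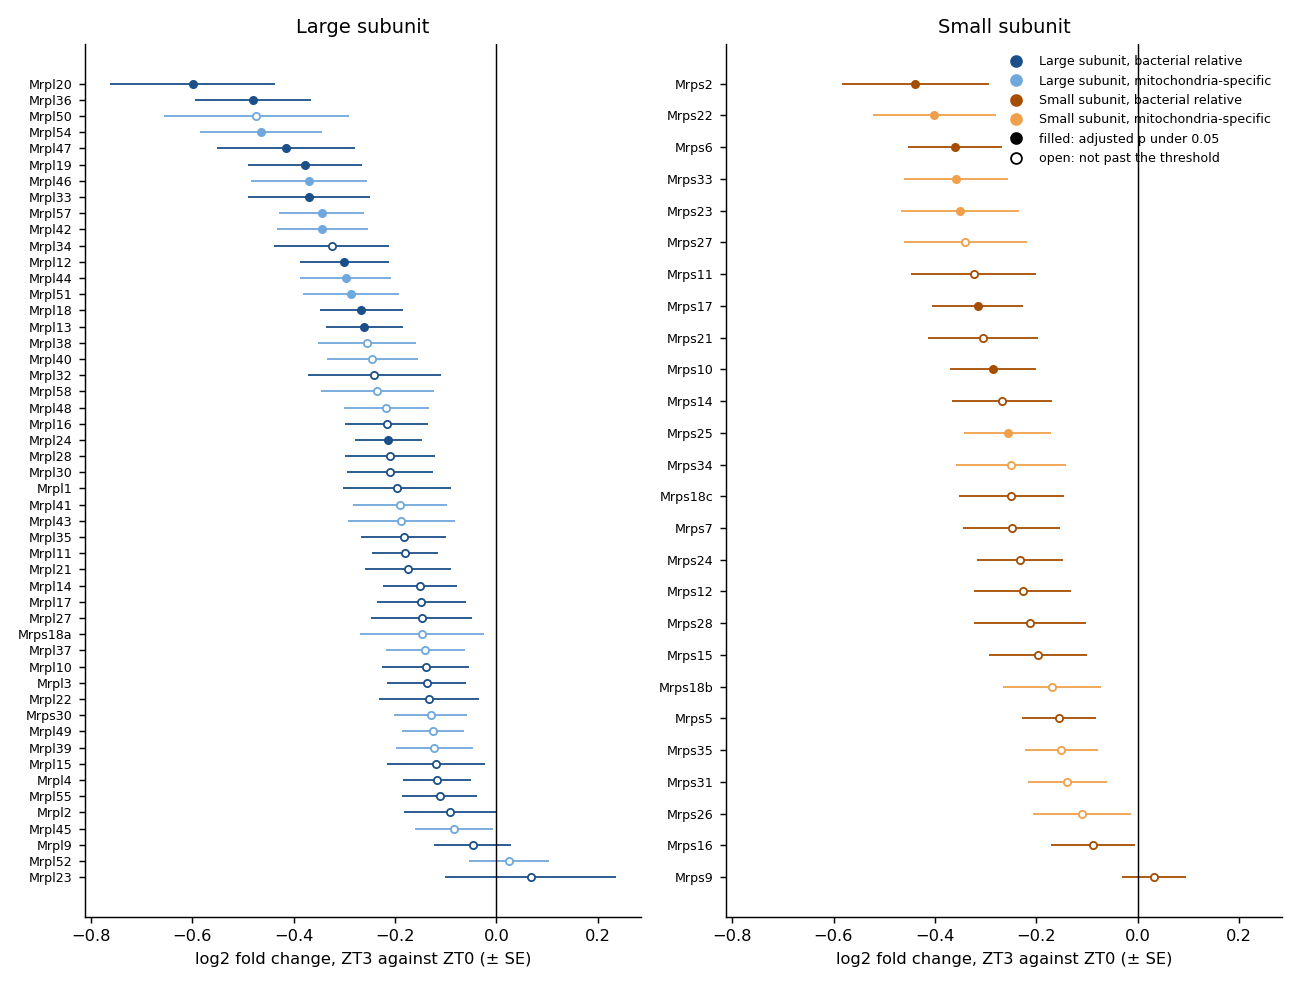
Log2 fold change of ZT3 against ZT0 (dots, with the SE as bars) for the 50 large subunit genes (left) and the 26 small subunit genes (right), ordered by size and coloured by role, filled where the edgeR adjusted p is under 0.05. Of the values, 48 of 50 and 25 of 26 lie below 0, and the filled genes run from -0.60 for Mrpl20 to -0.21 for Mrpl24.

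The number of genes past the threshold at ZT3 rested on single mice more than the direction did. Without replicate 4 of ZT0, the lowest ZT0 mouse, 38 members were past it while the share of all tested genes lower at ZT3 rose to 10.3%. Without replicate 2 of ZT0, 4 members were past it and the share was 3.78%. The count was 7 without replicate 1 of ZT0 (3.82% of all tested genes lower) and 7 without replicate 3 of ZT0 (3.57%). It was 12 without replicate 2 of ZT3 (4.52%), 7 without replicate 3 of ZT3 (3.83%) and 8 without replicate 4 of ZT3 (4.23%). Through these and every other alternative run, between 73 and 75 members stayed negative and the median log2 fold change stayed between -0.15 and -0.28. The summed markers of other cells moved over the same step. The 6 stromal markers together had 246 to 380 CPM at ZT0 and 404 to 677 CPM at ZT3, with 4 of 6 higher at ZT3 past the test (Pdgfra, Dcn, Col1a1 and Col1a2) and none at 0. The 9 leukocyte markers had 25.7 to 42.3 CPM at ZT0 and 37.4 to 62.5 CPM at ZT3, with 1 of 9 higher (Csf1r). The 5 blood markers had 471 to 855 CPM at ZT0 and 265 to 547 CPM at ZT3 with 0 of 5 past the threshold, and of 5 endothelial markers 1 was lower (Emcn). The 10 brown adipocyte markers ran from 11527 to 13685 CPM at ZT0 and from 10803 to 11863 CPM at ZT3, with 1 of 10 lower (Cox7a1). The skeletal muscle markers ranged from 4.62 to 5638 CPM at ZT0 and from 8.23 to 7818 CPM at ZT3, with 0 of 12 past the threshold. When the 15 libraries with over 1000 CPM of muscle markers were left out, 2 mice of ZT0, 3 of ZT3 and as few as 1 of a time point remained. Then 11 members were lower, 8 of them shared with the 23, at a share of 2.86% of all tested genes lower. The part of stromal, blood and other cells in the fall of the ribosomal genes was not tested.

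Whether the members oscillated over the day was asked with a cosine of 24 h fitted to all 32 libraries. A cosine was detected for 20 of 77 members (edgeR adjusted p under 0.05), or 26.0%, against 36.1% of all tested genes. Among genes of the same level quartiles the share was 43.6%. The swings were small, since the amplitude, the log2 distance from the daily mean to the peak, had a median of 0.08 among members, 0.14 over all tested genes and 0.10 over genes of the same level quartiles. The amplitude was under 0.1 for 48 members, and 13 had a fitted peak more than 1.2-fold above the trough. Every one of the 20 members with a cosine had its fitted peak in the dark phase. These peaks ran from ZT15.7 for Mrps24 to ZT23.6 for Mrps6, with 19 at or after ZT18. A fitted peak need not fall at the highest mean, which for 54 of all 77 members was at ZT0. Of the 5602 tested genes with a cosine, 49.1% had a fitted peak in the dark phase and 29.3% at or after ZT18. Among markers of other cells, 4 of 9 leukocyte, 3 of 6 stromal, 2 of 5 endothelial and 2 of 4 tested white fat markers had a cosine. So did 2 of 10 brown adipocyte markers and 0 of the skeletal muscle and blood markers. The part of these cells was not tested. By role, 7 of 30 bacterial relatives and 5 of 20 mitochondria-specific proteins of the large subunit oscillated, and 5 of 16 and 3 of 10 in the small subunit. The rank-based JTK_CYCLE test, with periods of 21 and 24 h, gave P under 0.05 for 19 members against 36.4% of all tested genes, and 14 after Benjamini-Hochberg adjustment against 27.1%. Any difference between the 8 time points was detected for 18 members against a background of 39.8%, with 11 without replicate 2 of ZT0, 29 without replicate 4 of ZT0 and 28 without replicate 1 of ZT9. Without replicate 1 of ZT15 the JTK_CYCLE test counted 29. Shares of all tested genes are not given for the omissions under these tests. The cosine count fell to 9 without the 15 muscle-rich libraries, at 17.8% of all tested genes, and lay between 14 and 29 when any 1 library was left out. The distance to the background depended on the setting. The members' share was 37.7% without replicate 1 of ZT15, against 38.3% of all tested genes, and 33.8% with library size alone, against 34.0%. Without the filter on low counts it was 16.9%, against 15.7%.

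**Figure D3:**
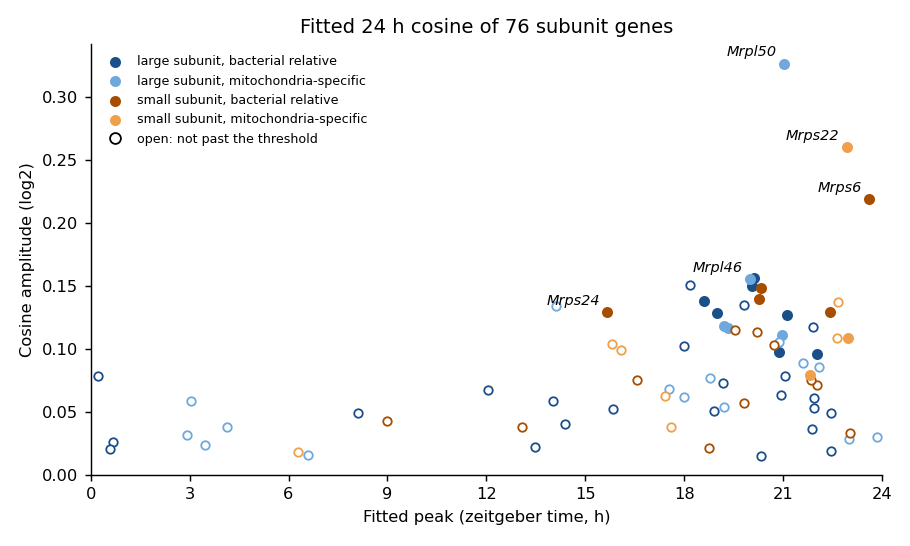
Fitted amplitude (log2, vertical axis) against fitted peak (zeitgeber time in h, horizontal axis) for the 76 subunit genes, coloured by role and filled where the edgeR adjusted p of the cosine is under 0.05. The 20 filled genes lie between ZT15.7 and ZT23.6, and Mrpl50, Mrps22 and Mrps6 stand above the rest with amplitudes of 0.33, 0.26 and 0.22.

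The widest swing belonged to Mrpl50 (chr4:49512596-49521093, minus strand), a mitochondria-specific protein of the large subunit. The mice of ZT21 had 80.3, 93.3, 75.7 and 97.5 CPM, and those of ZT9 had 76.9, 56.6, 38.6 and 46.6 CPM. The ranges met only through replicate 1 of ZT9, the highest of its group. The amplitude was 0.33 ± 0.066 SE, a 1.57-fold rise from trough to a peak at ZT21.0 (edgeR adjusted p = 0.000994). Its difference between ZT3 and ZT0 did not pass (log2 fold change -0.47, edgeR adjusted p = 0.0782).

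Mrps22 (chr9:98588730-98601660, minus strand), a mitochondria-specific protein of the small subunit in which mutations cause mitochondrial disease in people, was the next. It had 33.8, 33.9, 32.4 and 29.9 CPM at ZT0 and 27.1, 22.8, 18.9 and 18.7 CPM at ZT12, without overlap. Its amplitude was 0.26 ± 0.048 SE with a peak at ZT22.9 and a 1.43-fold swing (edgeR adjusted p = 0.000359). Mrps6 (chr16:92058270-92112227, plus strand), a relative of a bacterial small subunit protein, had the latest fitted peak, at ZT23.6. Its ZT0 mice had 28.8, 35.0, 30.1 and 28.9 CPM, its ZT3 mice 23.9, 20.7, 26.3 and 24.7 CPM, and its ZT12 mice 21.2, 19.0, 20.0 and 19.0 CPM. Each ZT0 mouse exceeded all 28 other mice for Mrps6. The amplitude was 0.22 ± 0.040 SE, a 1.35-fold swing (edgeR adjusted p = 0.000277). On the same strand, 19.9% of the exon bases of Mrps6 are shared with Slc5a3 and Gm49711, and 85.5% of its stretches of 100 bases were found in no other annotated gene.

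Behind these 3 genes the amplitudes were at most 0.16. Mrpl19 and Mrpl46 both had 0.16, with peaks at ZT20.1 and ZT20.0, and Mrpl36, Mrps28 and Mrps11 had 0.15, 0.15 and 0.14, with peaks between ZT20.1 and ZT20.3. The edgeR adjusted p was 0.0156, 0.0140, 0.0324, 0.0176 and 0.0419 in that order, and the call was lost in 17 of 37 alternative settings for Mrps11 and in 6 for Mrpl36. Mrpl12 had a mean of 145 ± 6.98 CPM at ZT18 and 118 ± 5.31 CPM at ZT6 (SD, n = 4), an amplitude of 0.14 ± 0.033 SE and an early peak at ZT18.6 (edgeR adjusted p = 0.00515). The earliest peak was that of Mrps24, at ZT15.7, followed among members with a cosine by Mrpl12, Mrpl34 at ZT19.0 and Mrpl44 at ZT19.2. The call of Mrpl34 was lost in 22 of the 37 alternative settings, with edgeR adjusted p up to 0.0917, and that of Mrpl44 in 2. The latest were Mrps15 at ZT22.4, Mrps22, Mrps31 at ZT23.0 and Mrps6. At the flat end, Mrpl11 at the base of the stalk had an amplitude of 0.015 ± 0.026 SE, and its time point means lay between 41.6 and 47.8 CPM. Mrpl43, Mrps23 and Mrpl27, a protein near the peptidyl transferase centre, had amplitudes of 0.015, 0.018 and 0.019. Of the exon bases of Mrpl43, 33.4% lie opposite Twnk.

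**Figure D4:**
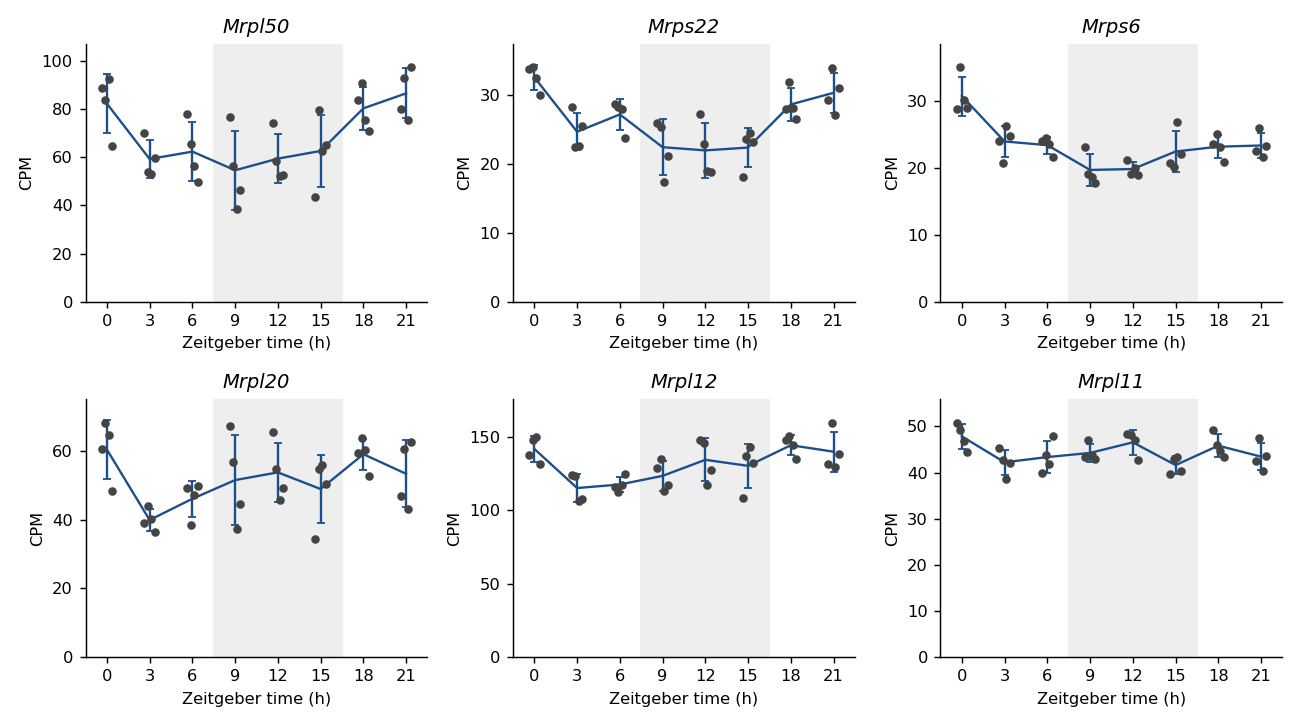
Level of 6 members in each mouse (dots, TMM-scaled CPM) against zeitgeber time (h), with the mean of the 4 mice as a line, the SD as bars and the time points of lane 3 shaded. The ZT0 mice of Mrps6 lie above all its other mice, the 4 ZT3 mice of Mrpl20 lie below its 4 ZT0 mice, and the time point means of Mrpl11 stay between 41.6 and 47.8 CPM.

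Because lanes divide the day, the cosine was also fitted beside a lane term. Then 2 of 77 members had a cosine, against 17.2% of all tested genes. Of the 20 members with a cosine without the lane term, 1 kept it, Mrps6, whose amplitude was 0.22 without and 0.24 ± 0.055 SE with the lane term (edgeR adjusted p = 0.00554 beside lane). Mrps17 gained one, with an edgeR adjusted p of 0.252 without and 0.0442 with the lane term and amplitudes of 0.071 and 0.18 ± 0.057 SE. The 19 others missed the threshold beside lane, where the amplitude was smaller for 13 of them and larger for 6. Mrpl50 had an amplitude of 0.25 ± 0.11 SE (edgeR adjusted p = 0.182), Mrps22 of 0.14 ± 0.091 SE (edgeR adjusted p = 0.394) and Mrpl19 of 0.13 ± 0.070 SE (edgeR adjusted p = 0.283). Among the 6, Mrps24 went from 0.13 without to 0.21 with the lane term (edgeR adjusted p = 0.135 beside lane), Mrpl34 from 0.13 to 0.19 (edgeR adjusted p = 0.109) and Mrpl46 from 0.16 to 0.17 (edgeR adjusted p = 0.149). Leaving out replicate 1 of ZT15 raised the count beside lane to 12 and leaving out replicate 2 of ZT9 raised it to 4, while 19 other libraries left 1 when each was omitted. Within lane 2, the 3 time points ZT0, ZT3 and ZT6 differed for 17 members, against a background of 12.7%, with the smallest adjusted p for Mrpl46, Mrpl47 and Mrpl20 (0.00681, 0.0111 and 0.0142, edgeR). This count changed most with the mice of ZT0, with 35 without replicate 4, 3 without replicate 2, 4 without replicate 3 and 5 without replicate 1. It was also 9, 8 and 8 without replicates 2, 3 and 4 of ZT3 and 11, 10 and 9 without replicates 1, 2 and 3 of ZT6. For the omissions in this paragraph the share of all tested genes is not given. Whether the shifts were particular to the members was not tested. Within lane 3, 0 members differed between ZT9, ZT12 and ZT15 by edgeR and by DESeq2, against 1.75%, and 0 had an unadjusted p under 0.05. Within lane 4, 1 member differed between ZT18 and ZT21, against 4.06%, and 6 had an unadjusted p under 0.05. That member was Mrpl33, a relative of a bacterial large subunit protein, which had 19.3, 17.2, 19.8 and 18.3 CPM at ZT18 and 13.1, 15.3, 15.0 and 15.8 CPM at ZT21 (edgeR adjusted p = 0.0434). The mice of ZT21 were all below those of ZT18 for Mrpl33, yet the same step in the fit over all libraries missed the threshold (edgeR adjusted p = 0.149). The call within lane 4 was lost when any 1 of the 8 libraries was left out.

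The onset of dark was compared with the onset of light, ZT12 against ZT0, which ran on different lanes. Here 6 members were lower and 0 higher at ZT12 (edgeR), against 8.15% and 7.71% of all tested genes, so the share of members was no larger than that of genes in general. The log2 fold change was negative for 62 of 77 members, against 49.7% of all tested genes. The ZT0 libraries are the same as those in the comparison with ZT3. Mrps6 changed most, with a log2 fold change of -0.63 ± 0.093 SE (edgeR adjusted p = 3.41e-05), followed by Mrps22 with -0.57 ± 0.12 SE (edgeR adjusted p = 0.00194). Mrps17 had 59.7, 57.4, 60.3 and 47.9 CPM at ZT0 and 46.7, 43.9, 42.7 and 44.7 CPM at ZT12, without overlap (log2 fold change -0.34, edgeR adjusted p = 0.0107). The others were Mrpl42, Mrps31 and Mrpl13 with log2 fold changes of -0.27, -0.25 and -0.23, of which Mrpl13 was picked out after its value was seen. For the omission of single libraries the share of all tested genes is not given. The count was 3 without replicate 1 of ZT0, replicate 3 of ZT0 or replicate 3 of ZT12. It was 13 without replicate 4 of ZT0, 11 without replicate 1 of ZT12 and 10 without replicate 1 of ZT9. Without the muscle-rich libraries, which left 2 mice of each time point, it was 1, against 1.21% of all tested genes lower. Markers of other cells moved over the same contrast. The 5 endothelial markers summed to 751 to 937 CPM at ZT0 and 611 to 666 CPM at ZT12, with 2 of 5 lower past the threshold. The 6 stromal markers summed to 246 to 380 CPM at ZT0 and 434 to 641 CPM at ZT12, with 6 of 6 log2 fold changes positive, a median of 0.65 and 0 past the threshold. The 9 leukocyte markers summed to 25.7 to 42.3 CPM at ZT0 and 40.6 to 53.4 CPM at ZT12, with 9 of 9 positive, a median of 0.46 and 0 past the threshold. The 5 blood markers summed to 471 to 855 CPM at ZT0 and 413 to 584 CPM at ZT12, with 5 of 5 negative, a median of -0.61 and 0 past the threshold. Their part in the result was not tested.

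Mid-dark mice (ZT18) were set against mid-light mice (ZT6), which ran on different lanes. At ZT18, 6 members were higher and 0 lower (edgeR), against 8.18% and 8.68%, and 67 of 77 had a positive log2 fold change. The mice did not overlap for 19 members, with 19 higher and 0 lower at ZT18, against 11.5% and 11.3% of all tested genes. Of 2778 genes in the same level quartiles, 472 were higher and 347 lower without overlap. Mrpl12 had 148, 151, 144 and 135 CPM at ZT18 and 116, 113, 117 and 125 CPM at ZT6, so that each dark phase mouse exceeded each light phase mouse (log2 fold change 0.30, edgeR adjusted p = 0.0204). Mrpl34 rose by 0.33 on the log2 scale (edgeR adjusted p = 0.0429) and Mrpl46 by 0.33 (edgeR adjusted p = 0.0458). Mrps24, a relative of a bacterial small subunit protein, had 59.0, 59.2, 60.7 and 55.5 CPM at ZT18 and 45.5, 45.6, 49.1 and 53.5 CPM at ZT6 (log2 fold change 0.28, edgeR adjusted p = 0.0253). No share of all tested genes is given for single libraries left out or for library size alone. The count was 1 without replicate 1 or 2 of ZT6 or of ZT18, 3 without replicate 3 of ZT6 or of ZT18, and 10 without replicate 1 of ZT15. Scaled by library size alone it was 11. The mitochondrially encoded genes took 18.5% to 20.7% of the counts at ZT18 and 22.6% to 27.9% at ZT6, without overlap, and with those genes removed before scaling the count was 4, against 7.88% of all tested genes higher. The white fat markers also stood apart, with a sum of at least 143 CPM in each ZT18 mouse and 49.1 to 81.8 CPM at ZT6, 1 of 4 tested being higher at ZT18 past the threshold. The skeletal muscle markers had 4.08 to 5564 CPM at ZT18 and 2.79 to 1975 CPM at ZT6, with 0 of 12 past the threshold. Of 5 endothelial markers 1 was higher at ZT18 and of 10 brown adipocyte markers 1 was lower, past the threshold. Of the stromal, leukocyte and blood markers 0 passed. Without the muscle-rich libraries, which left 2 mice of ZT18 and 3 of ZT6, 0 members passed (edgeR), against 3.56% of all tested genes higher, while 12 had an unadjusted p under 0.05 and 62 of 77 a positive log2 fold change. The part of the white fat and other markers was not tested.

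The other steps of 3 h that stay on 1 lane showed no member past the threshold by edgeR or DESeq2. From ZT3 to ZT6 the count was 0 in both directions, against 0.864% higher and 1.21% lower, with 1 unadjusted p under 0.05. From ZT9 to ZT12 it was 0, against 0.00% in both directions, with 1 unadjusted p under 0.05. From ZT12 to ZT15 it was 0, against 2.03% higher and 1.02% lower, with 3 unadjusted. From ZT18 to ZT21 it was 0, against 1.24% higher and 0.826% lower, with 2 unadjusted.

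Some members with a role of their own were read whatever their values. Mrps12, in the decoding centre of the small subunit, had an amplitude of 0.033 (edgeR adjusted p = 0.759) and time point means from 21.2 to 25.0 CPM. Mrpl58, a peptidyl-tRNA hydrolase that frees stalled ribosomes, had an amplitude of 0.11 (edgeR adjusted p = 0.103). Mrpl44 passed, with an amplitude of 0.12 and a peak at ZT19.2 (edgeR adjusted p = 0.0231). The paralogues Mrps18a, Mrps18b and Mrps18c are related to 1 bacterial protein and take different places in the particle. Mrps18a had 63.1 CPM per kb, Mrps18b 24.4 and Mrps18c 18.1. Their amplitudes were 0.13, 0.038 and 0.021 with edgeR adjusted p = 0.0618, 0.665 and 0.887, so none passed. Mrps18a passed in 7 of 37 alternative settings, with edgeR adjusted p down to 0.0248. Mrps18a was highest at ZT12 with 64.1 ± 4.55 CPM (SD, n = 4) and lowest at ZT6 with 48.9 ± 8.23 CPM. Mrps36, the protein now placed outside the ribosome, had 66.1 CPM per kb and an amplitude of 0.084 (edgeR adjusted p = 0.212), and at ZT3 its log2 fold change against ZT0 was -0.25 (edgeR adjusted p = 0.136).

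The proteins that build and serve the mitochondrial ribosome were read from lists of assembly and RNA modification factors, translation factors, aminoacyl-tRNA synthetases and ribosomal proteins under other symbols. Of 64 such genes tested, 17 had a cosine of 24 h, against 36.1% of all tested genes. Beside a lane term 5 had one, against 17.2%, of which 4 were among the 17 (Cars2, Mars2, Mtrf1l and Trmt61b) and Mterf3 was gained. The edgeR adjusted p beside lane was 0.0499 for Cars2 and 0.00632 for Mars2. The amplitudes and peaks that follow are from the fit without lane. The widest fitted swing was wider than that of any ribosomal protein gene. Cars2, which charges mitochondrial tRNA with cysteine, had an amplitude of 0.37 ± 0.042 SE with a peak at ZT0.73 (edgeR adjusted p = 2.22e-07) and went from 41.9 ± 3.69 CPM at ZT0 to 23.3 ± 3.16 CPM at ZT15 (SD, n = 4). Mars2, the methionine enzyme, had 0.33 with a peak at ZT17.4 (edgeR adjusted p = 1.46e-06), and Yars2, the tyrosine enzyme, 0.18 with a peak at ZT22.1 (edgeR adjusted p = 0.00170). The ribosomal RNA methyltransferases Mrm2 and Mrm3 had 0.31 and 0.24 with peaks at ZT17.1 and ZT17.6, and the methyltransferase Trmt61b 0.21 with a peak at ZT20.7. Among translation factors, the release factor Mtrf1l had 0.21, the elongation factor Gfm1 0.13 and the initiation factor Mtif2 0.12. Chchd1, a small subunit protein under another symbol, had 0.12. Beside lane the call was lost for Yars2, Mrm2, Mrm3, Gfm1, Mtif2 and Chchd1, with edgeR adjusted p from 0.0920 for Yars2 to 0.366 for Gfm1.

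At ZT3, 9 of the 64 were lower than at ZT0 and 0 higher, against 6.60% and 7.16% of all tested genes. The log2 fold change was negative for 58 of them, against 49.3% of all tested genes, and the median was -0.20. Mrm3 fell from 19.5 ± 1.98 to 12.1 ± 2.75 CPM (SD, n = 4, log2 fold change -0.69, edgeR adjusted p = 0.00579) and Mrm2 from 8.14 ± 1.52 to 5.40 ± 0.734 CPM (log2 fold change -0.59, edgeR adjusted p = 0.0207). For comparison, 23 of 39 genes of complex I, the first enzyme of the respiratory chain, were lower at ZT3 with a median of -0.26. Of 74 genes for ribosomal proteins of the cytosol, 0 passed by edgeR in either direction, 5 had an unadjusted p under 0.05 and 1 was lower by DESeq2, with a median log2 fold change of -0.05. The summed level of the cytosolic genes was 4524 ± 332 CPM at ZT0 and 4438 ± 136 CPM at ZT3 (SD, n = 4). The difference between these lists and the members was not tested.

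**Figure D5:**
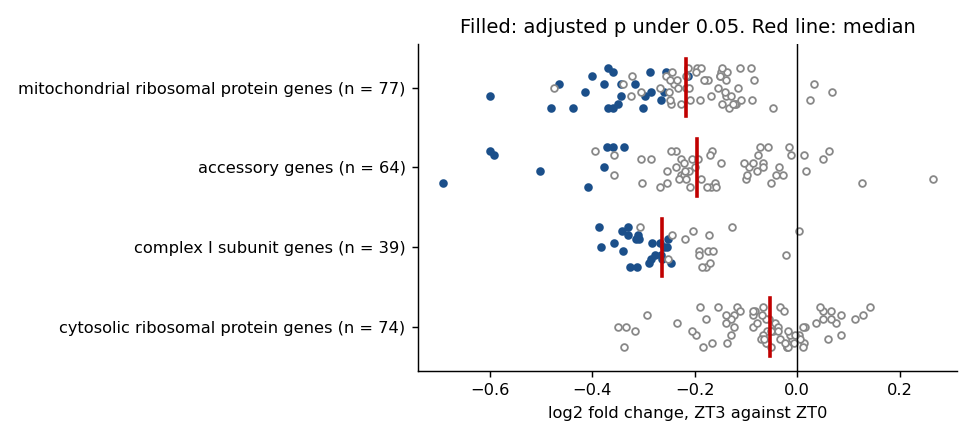
Log2 fold change of ZT3 against ZT0 for each gene (dots, filled where the edgeR adjusted p is under 0.05) of the members, the accessory genes, the complex I subunit genes and the cytosolic ribosomal protein genes, with the median of each list as a red line. The medians are -0.22, -0.20, -0.26 and -0.05, and no cytosolic ribosomal protein gene is filled.

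The members lie on 17 chromosomes, and their neighbourhood had a feature that the rule did not use. For 33 of 77 members (42.9%) another protein-coding gene starts on the opposite strand within 1000 bases of the start, compared with 15.5% of 13202 tested protein-coding genes. Mrpl46 and Mrps11 are such a pair with each other on chromosome 7, and their exons overlap at the start. Both had a cosine without the lane term and neither beside lane, and that of Mrps11 was lost in 17 of 37 alternative settings. Their fitted peaks were at ZT20.0 and ZT20.3, and their log2 fold changes at ZT3 were -0.37 (edgeR adjusted p = 0.0313) and -0.32 (edgeR adjusted p = 0.0762). Of 26 tested partners that are not members, 5 were lower at ZT3 and 2 higher, against 6.60% and 7.16% of all tested genes, with a median log2 fold change of -0.06, and 12 had a cosine, against 36.1%. Ndufs6, a complex I gene opposite Mrpl36, was lower with a log2 fold change of -0.28 (edgeR adjusted p = 0.0229), and Twnk, the mitochondrial DNA helicase opposite Mrpl43, was lower with -0.64 (edgeR adjusted p = 0.000403) while Mrpl43 had -0.19 (edgeR adjusted p = 0.233). The 2 partners higher at ZT3 were Ighmbp2 opposite Mrpl21 (log2 fold change 0.59, edgeR adjusted p = 0.00317) and Pnpla7 opposite Mrpl41 (0.34, edgeR adjusted p = 0.0312). The named partners were picked out after their values were seen.

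Promoter windows from RefSeq, of 250 bases before and 50 bases after the start, were found for 68 of 77 members. They were searched on both strands for motifs of factors tied to mitochondrial genes and to the clock. The NRF1 motif (GCGCA, any base, then GCGC) was in 13 of 68 windows (19.1%, against 11.1% of 10354 tested protein-coding genes with a window), the ETS family motif CCGGAAGT in 12 (17.6% against 8.82%) and the YY1 motif AAGATGGC in 12 (17.6% against 5.05%). The E-box CACGTG, read by the clock factors, was in 5 (7.35% against 11.5%), the CREB motif TGACGTCA in 2 (2.94% against 3.44%), and the D-box TTATGTAA and the ERR motif TCAAGGTCA in 0, against 0.676% and 0.338%. These matches are descriptions of letters, not of bound sites. The stretches before the start of the 3 members with the widest swing, of the stalk protein Mrpl12 and of Mrpl20, which fell most at ZT3, are shown from RefSeq (GRCm38.p6), 5′ to 3′ on the strand of the gene, as far as they lie outside every annotated exon, with a matched motif in capitals:
Mrpl50, chr4:49521094-49521175, minus strand: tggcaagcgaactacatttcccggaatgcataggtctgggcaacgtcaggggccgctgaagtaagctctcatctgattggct
Mrps22, chr9:98601680-98601929, minus strand: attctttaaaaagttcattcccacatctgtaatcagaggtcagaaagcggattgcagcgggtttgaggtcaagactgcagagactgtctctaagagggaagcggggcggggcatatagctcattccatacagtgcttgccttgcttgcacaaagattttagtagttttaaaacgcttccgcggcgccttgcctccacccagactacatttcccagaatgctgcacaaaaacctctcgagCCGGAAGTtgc
Mrps6, chr16:92058086-92058269, plus strand: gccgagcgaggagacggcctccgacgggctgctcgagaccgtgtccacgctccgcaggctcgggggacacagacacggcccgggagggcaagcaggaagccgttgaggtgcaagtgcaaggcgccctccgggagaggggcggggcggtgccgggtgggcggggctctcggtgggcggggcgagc
Mrpl12, chr11:120484387-120484612, plus strand: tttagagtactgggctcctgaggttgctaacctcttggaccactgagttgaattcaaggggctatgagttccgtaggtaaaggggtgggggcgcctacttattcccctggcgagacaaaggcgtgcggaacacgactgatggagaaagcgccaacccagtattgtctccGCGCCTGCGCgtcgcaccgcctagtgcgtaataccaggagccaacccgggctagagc
Mrpl20, chr4:155802628-155802877, plus strand: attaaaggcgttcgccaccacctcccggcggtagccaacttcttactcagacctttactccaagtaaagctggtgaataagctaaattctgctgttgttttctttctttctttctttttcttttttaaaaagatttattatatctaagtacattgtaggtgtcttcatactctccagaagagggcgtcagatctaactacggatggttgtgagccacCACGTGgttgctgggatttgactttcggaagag

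Mrps22 holds the ETS letters directly before its start, Mrpl12 holds NRF1 letters and Mrpl20 an E-box, while the stretches of Mrpl50 and Mrps6 hold none of the 7 motifs. The 3 genes with the widest daily swing therefore share none of these letters in the stretches shown.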

How the data were processed

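Stranded RNA libraries of 32 iBAT samples, 4 mice at each of 8 time points, were sequenced as read pairs. Per the labels and the methods of the study, reads were aligned to mm10 with GSNAP (2017-09-11) and counted per Ensembl gene with HTSeq-count (0.6.1). Whether counting used the strand is not given in the sources used here. The deposited values were raw counts by the authors, and every column was mapped to its sample through the labels. No filter or normalization had been applied to them.

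Gene symbols and coordinates came from GENCODE M21 (GRCm38). The members and gene lists were chosen with earlier results of these data known. Counts were tested with edgeR 4.0.16 (R 4.3.3): TMM scaling, filterByExpr by time point (15505 genes kept, all members among them), quasi-likelihood F tests and Benjamini-Hochberg adjustment over all 15505 genes at a threshold of 0.05. Fits were a cosine of 24 h, 8 time points with contrasts, a cosine beside lane, and time points within each lane. CPM values are TMM-scaled, CPM per kb are divided by the annotated transcript length, and level and length quartiles are those of the members. JTK_CYCLE was implemented anew (periods of 21 and 24 h, Bonferroni over 15 templates) and, like the count tests, tested on simulated data. In the fits of time points, p-values weigh a difference against the spread between mice of the same time point. In the cosine fits, that spread also holds departures of the time points from the fitted curve. JTK_CYCLE ranks all 32 libraries. Replicate numbers did not pair the mice: deviations of same-numbered libraries at different time points had a mean correlation of -0.033 over 112 pairs, and 4 of 32 libraries were closest to their own number.

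Members were named by rule: the widest and flattest amplitudes, the highest and lowest levels per kb, the largest changes past the threshold in each contrast and lane, the earliest and latest peaks, changes of call beside lane, and a few members by role. Alternatives were library size alone, DESeq2 1.42.0 and its size factors, removal of mitochondrially encoded genes, no filter, the replicate number as a block, stricter thresholds, fits of 2 time points alone, and omission of each library. After the data were seen, the omission of the 15 muscle-rich libraries and the fit of ZT0 and ZT3 alone were added.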

Additional observations from a re-analysis of the deposited data

Results flagged for a closer look

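Single mice stood apart in 11 of the 304 groups of 4 tested, by Dixon's test at the 95% level, where about 15 would be flagged by chance. The groups were those of the named members and of the summed levels of all members and of each subunit. At ZT0, replicate 4 was lowest for Mrpl42 (129.7 CPM against 156.1 to 160.9 in the others), for Mrpl54 (17.3 CPM against 24.31 to 25.67) and for Mrps23 (44.55 CPM against 55.75 to 56.49). At ZT15, replicate 1, which had the highest summed skeletal muscle markers, was lowest for Mrpl47 (30.96 CPM against 39.57 to 41.13) and Mrps23 (33.16 CPM against 46.86 to 47.99). At ZT18, replicate 4 was lowest for Mrpl34 (79.74 CPM against 96.76 to 98.68), replicate 3 was lowest for Mrps31 (42.72 CPM against 52.78 to 54.11), and replicate 1 was highest for Mrps17 (51.41 CPM against 45.19 to 45.81). Replicate 2 of ZT3 was highest for Mrpl36 (19.35 CPM against 18.39 to 18.42), replicate 1 of ZT12 was highest for Mrps18b (32.19 CPM against 24.34 to 25.65), and replicate 4 of ZT6 was lowest for Mrps22 (23.78 CPM against 27.87 to 28.65).

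Genes annotated as pseudogenes of the members carried counts that no comparison used. Over the 32 libraries Mrpl23-ps1 had 8803 counts, Mrpl48-ps 5039, Mrps36-ps1 11204 and Mrps36-ps2 6845. Reads of a pseudogene and of its parent gene can be exchanged where the sequences are nearly identical, so the levels of Mrpl23, Mrpl48 and Mrps36, with 1616, 22099 and 25753 counts of their own, are uncertain.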

How the results depend on the processing

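The direction of the 23 members lower at ZT3 held in every alternative run, but their number did not. It was 12 with library size alone, where the median log2 fold change of all genes was 0.07 in place of 0.01, 10 without the filter, 11 without the muscle-rich libraries, 8 with the libraries of ZT0 and ZT3 alone (3.93%, 2.16%, 2.86% and 3.03% of all tested genes lower, in place of 6.60%), and 4 to 38 over the omission of each library. For ZT12 against ZT0 the 6 became 3 without the filter, 1 without the muscle-rich libraries and 3 in the 8 libraries alone (3 to 13 with each library left out). For ZT18 against ZT6 the 6 became 11 with library size alone, 0 without the filter, 0 without the muscle-rich libraries and 12 in the 8 libraries alone (1 to 10 with each left out). The 20 cosine members became 13 without the filter, 9 without the muscle-rich libraries and 6 at an adjusted p of 0.01 (14 to 29), the 19 by JTK_CYCLE ranged from 16 to 29, and the 18 differing between time points became 10 without the filter and 3 without the muscle-rich libraries (11 to 29). Beside lane the 2 became 1 without the filter (1 to 12). Within lane 2 the 17 became 7 with library size alone and 10 without the filter (3 to 35), and within lane 4 the 1 became 2 with library size alone, 2 by DESeq2 and 0 without the filter (0 to 1). Lane 3 and the steps from ZT3 to ZT6, ZT9 to ZT12, ZT12 to ZT15 and ZT18 to ZT21 gave 0 in every alternative run for them, which leaves out the omission of the muscle-rich libraries. Without the filter more genes enter the adjustment. The cause of the other changes, including those where the omission of a library raised a count, was not tested. Outside ZT3 against ZT0, the counts in this paragraph stand without the share of all tested genes. A change in them may therefore be shared by genes in general.

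With the replicate number as a block, the counts were 11 within lane 2, 0 within lane 4 and 1 beside lane, and 21 at ZT3 against ZT0. The mice share only a number, so no pairing is implied. Removal of mitochondrially encoded genes raised the summed level at every time point, since the shares are then taken of fewer counts, to 5317 CPM at ZT0 and 4535 CPM at ZT3.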
